A study of Mus musculus with 44 samples.

Results

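Whole brains of C57BL/6 male mice were compared at 26 months of age. The mice had been on the cyclic ketogenic diet (KD) that the study calls one-year, or on the control diet (CD). The members are the 16 libraries of whole brain at that age, 8 from CD mice and 8 from KD mice, chosen by the labels for tissue, age and diet, out of 44 libraries in the series. The mice started the diets at 12 months and were taken at 26 months. One-year, or a year, is thus the study's name for the diet and not its exact length. In the cyclic KD the food was switched every week between KD, which holds almost no carbohydrate, and CD, and according to the study's methods the brains were taken in a week on CD, so both groups ate the same food when they were killed. The other brain libraries are 5 of CD mice and 7 of one-week KD mice at 12 months. They enter the same fit and are used below for the effect of the one-week KD. The labels give no genotype, and no knockout, transgene or drug is named for any group. Each library holds RNA of whole brain, so cell types and brain regions are mixed in it. The labels do not say that each 26-month library came from a different mouse, while a figure legend of the study gives 8 mice in each group for this brain comparison. The p-values measure the spread between the libraries.

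In a ketogenic diet fat replaces carbohydrate, the liver turns fatty acids into the ketone bodies β-hydroxybutyrate and acetoacetate, and these reach the brain through monocarboxylate transporters in its vessel walls. In neurons and glia they are turned back into acetyl-CoA by Bdh1 and Oxct1. The aging brain is known for primed microglia, interferon and complement genes, and a leakier blood-brain barrier. β-hydroxybutyrate also binds the receptor Hcar2 and has been described as an inhibitor of the Nlrp3 inflammasome, the complex that activates interleukin 1β.

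The libraries held 7447740 to 12744400 counts in CD and 8290140 to 11184500 in KD, and neither this total nor the number of genes detected, the share of mitochondrial transcripts or the share of the predicted gene Gm10800 differed between the diets beyond the spread of the libraries (exact permutation tests, two-sided, adjusted p of 0.75 for each). All 16 held the genes of brain cells, such as Snap25 of synapses at 1295 to 1872 CPM (the count of a gene scaled to the total of its library, after TMM), Mbp of myelin at 1455 to 2367 CPM and Slc1a2 of astrocytes at 2102 to 4812 CPM, while the liver genes Alb and Apoa1 stayed under 1.54 CPM. The main difference among the libraries was not the diet but the brain region. In a principal component analysis of 13550 genes the first component, with 55.9% of the variance, set libraries rich in genes of the cerebellum against libraries rich in genes of striatum and cortex, and both diets had libraries at either end. The summed level of 27 cerebellar genes was 1129 to 5639 CPM in CD and 1146 to 7764 CPM in KD, highest in CD replicate 5 and KD replicate 14. CD replicate 6 lay apart on the second component, with 12.3% of the variance, and was highest in hypothalamic genes. CD replicates 3, 6 and 7 were highest in stress hormone and endothelial genes. The libraries without these 3 are called the reduced set, a choice made after seeing the data. As the 3 stood out by their high levels of these genes, a smaller difference there in the reduced set follows largely from the choice. The reduced set also changes region content. The median log2 fold change (KD minus CD) of cerebellar genes was 0.48 in all libraries and 0.053 in the reduced set. For named genes at an unadjusted p under 0.05 the value in the reduced set is given where it moved by over 1.5 times, and it is also given for the lists that it moved most. How much these differences in tissue add to the values below was not tested beyond those fits.

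No gene passed the test for the one-year KD. Of 22079 genes tested with the quasi-likelihood test of edgeR, 0 were higher (0%) and 0 lower (0%) at an adjusted p under 0.05, and the smallest adjusted p was 0.989, which therefore bounds the adjusted p of every one-year value given below. Values after a gene name are log2 fold changes, KD minus CD, with their standard error (SE). DESeq2 and limma also called 0 genes. At an unadjusted p under 0.05 there were 336 higher genes (1.52%) and 663 lower genes (3%), 999 in all. A log2 fold change above 1 in size was seen for 58 genes, 39 of them with a mean of at least 1 CPM. The test bounded most effects: for 20281 genes, or 91.9%, the 95% interval of the fold change lay within 2-fold in both directions, and for 69.6% it lay within 1.5-fold. Among the 20114 genes with a mean of at least 1 CPM the share within 2-fold was 94.6%. The ratio of higher to lower genes at an unadjusted p depended on the scaling, since with library totals alone the numbers were 215 and 808. It also depended on single libraries: without CD replicate 6 there were 379 lower genes, and without CD replicate 2 or 5 there were 561 or 507 higher ones.

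**Figure D1:**
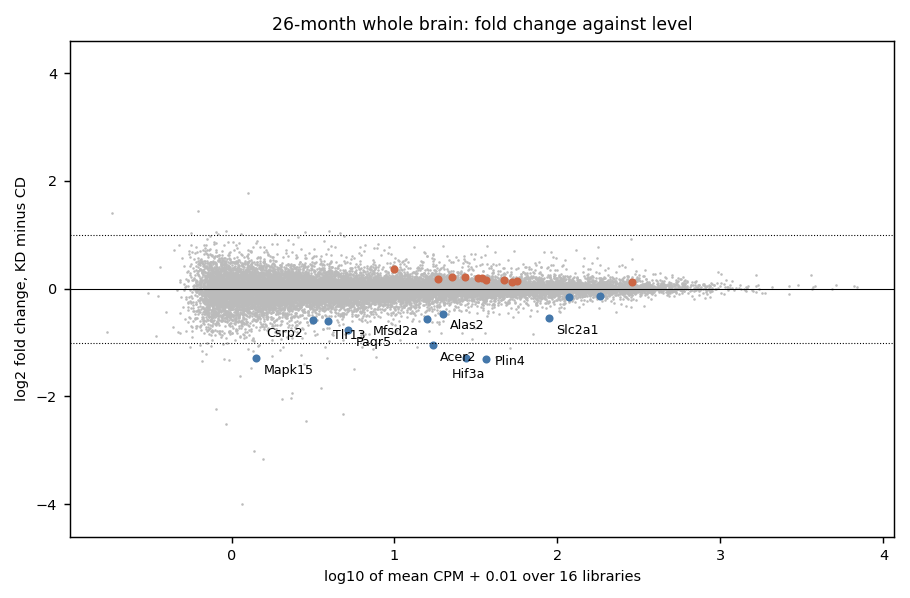
Log2 fold change of the one-year KD (KD minus CD, 8 libraries each) against the log10 of the mean level in CPM for the 22079 genes tested, as grey points. The genes named for the smallest p on each side are in orange (higher in KD) and blue (lower in KD), dotted lines mark 2-fold, and the 10 labelled lower genes lie between -0.47 and -1.31 while the higher ones reach at most 0.36.

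Of the genes lower in KD, the smallest p was that of Plin4, a coat protein of lipid droplets. Plin4 stood at 16.3 to 101 CPM (median 29.6) in CD and at 15.5 to 27.6 CPM (median 20.7) in KD, with a log2 fold change of -1.31 (SE 0.30), 95% interval -1.93 to -0.69. Its groups overlapped: CD replicates 3, 6 and 7, at 91.0, 101.3 and 96.5 CPM, lay far above all other brains, and the remaining CD brains, at 16.3 to 30.4 CPM, lay close to the KD brains, 2 of them above every KD brain. In the reduced set the log2 fold change of Plin4 was -0.26 (SE 0.17). Hif3a, a member of the family of hypoxia-inducible factors, showed the same picture, at 10.1 to 84.6 CPM (median 25.6) in CD and 9.87 to 23.2 CPM (median 15.01) in KD (-1.29 (SE 0.34)), and -0.16 without the 3 libraries. Acer2, a ceramidase of the Golgi, stood at 8.57 to 57.3 CPM (median 17.8) in CD and 8.14 to 15.4 CPM (median 11.6) in KD (-1.04 (SE 0.29)), with CD replicates 3 and 6 highest, and had -0.19 without the 3 libraries.

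Both of the best placed transporters are carriers of the blood-brain barrier. Slc2a1, the glucose transporter GLUT1 of brain vessels and glia, stood at 67.8 to 163 CPM (median 91.03) in CD and 65.7 to 78.3 CPM (median 72.5) in KD, with a log2 fold change of -0.54 (SE 0.14). Of the CD brains 5 lay above every KD brain, led by replicates 3, 6 and 7, and without these the value was -0.14 (SE 0.078). Mfsd2a, which carries lysophosphatidylcholine with docosahexaenoic acid into the brain, stood at 13.5 to 29.8 CPM (median 17.8) in CD and 10.4 to 15.8 CPM (median 12.3) in KD (-0.56 (SE 0.15)), and had -0.29 (SE 0.13) without the 3 libraries. Its groups overlapped, with 5 CD brains above every KD brain and 5 KD brains below every CD brain.

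**Figure D2:**
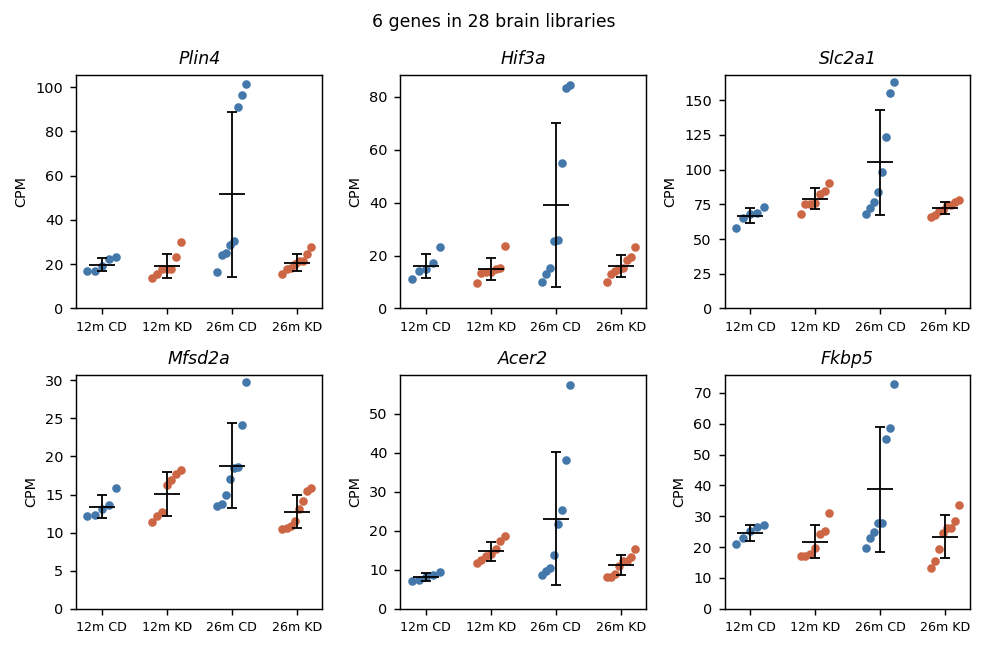
CPM of 6 genes in the 28 brain libraries, by age and diet (blue CD, orange KD), each point a library and the bars the mean and SD. In Plin4 and Hif3a 3 of the 8 CD brains at 26 months lie above all others, and the KD brains at 26 months lie in the range of the 12-month brains or near it.

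The other lower genes with the smallest p differed in how far they rested on these libraries. Tnpo1, an importin that carries RNA-binding proteins into the nucleus, was at 177 to 206 CPM (median 192) in CD and 166 to 181 CPM (median 173) in KD (-0.14 (SE 0.036)), and at -0.14 without the 3 CD libraries. Cops2, a subunit of the COP9 signalosome, had -0.16 (SE 0.045), and -0.17 without them. Both differences were small, in genes measured with little spread. Tlr13, a sensor of bacterial ribosomal RNA in microglia and other phagocytes, stood at 3.07 to 6.50 CPM (median 4.62) in CD and 2.23 to 4.07 CPM (median 3.08) in KD (-0.60 (SE 0.15, -0.34 in the reduced set)). Csrp2, a LIM protein of smooth muscle, had -0.59 (SE 0.16) and 7 KD brains below every CD brain, and -0.45 without the 3 libraries. Alas2, which makes heme in red blood cell precursors, had -0.47 (SE 0.12, -0.24 in the reduced set), the progestin receptor family gene Paqr5 had -0.77 (SE 0.20, -0.28 in the reduced set), and the kinase gene Mapk15, at a mean of 1.41 CPM, had -1.29 (SE 0.36).

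The best placed genes of the higher side showed small differences. Zfp341, a zinc finger factor that drives Stat3 transcription, stood at 7.53 to 9.27 CPM (median 9.13) in CD and 8.86 to 13.7 CPM (median 11.2) in KD, with a log2 fold change of 0.36 (SE 0.09) and 7 of 8 KD brains above every CD brain. Entr1, a protein of endosome traffic and cell division, was the single gene of the 22079 (0.00453%) whose groups did not overlap, with 0 genes (0%) in the other direction, at 30.9 to 36.4 CPM (median 34.9) in CD and 36.7 to 42.7 CPM (median 37.1) in KD (0.15 (SE 0.041)). Its adjusted p was 0.989 as for the others. Pigo, which adds ethanolamine phosphate to GPI anchors, had 0.22 (SE 0.056). Rfng, a fringe enzyme that modifies Notch receptors, had 0.17 (SE 0.044). Polr3a, a subunit of RNA polymerase III, had 0.11 (SE 0.034). Exoc7 of the exocyst had 0.14 (SE 0.04), Ago4 of the Argonaute family 0.22 (SE 0.065), the microtubule end protein gene Mapre2 0.12 (SE 0.038), the palmitoyltransferase gene Zdhhc18 0.19 (SE 0.059), Gramd4 0.19 (SE 0.053) and the tetraspanin gene Tspan31 0.18 (SE 0.054). None of these genes differed by more than a log2 fold change of 0.36.

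Genes of glucocorticoid action, most of them genes the hormone induces, made up the list with the most members at a small p. Corticosterone of the adrenal cortex, the stress hormone of mice, enters cells and binds the glucocorticoid receptor Nr3c1, which then turns on genes through palindromic elements in the DNA. Of the 42 genes tested, 35 had a fold change below 0 (83.3%), against 51.0% of all genes tested, and 19 were lower at an unadjusted p under 0.05, or 45.2% against the 3% of all genes. None was higher at that p, and 0 passed after adjustment. The list was written by hand with earlier results of these data known, and some members also stand in other lists, so its direction is no independent evidence. The median log2 fold change was -0.25, against -0.0027 for all genes. The counts of the lists below have the same background. Of all genes tested 49.05% were above 0 and 51.0% below, and 3% were lower and 1.52% higher at an unadjusted p under 0.05. Fkbp5, a chaperone of the receptor and one of its best known targets, stood at 19.7 to 72.8 CPM (median 27.9) in CD and 13.2 to 33.6 CPM (median 25.4) in KD (-0.73 (SE 0.24, -0.08 in the reduced set)), and CD replicates 3, 6 and 7, at 72.8, 55.1 and 58.5 CPM, lay above all KD brains. Ddit4, an inhibitor of mTORC1, had -0.46 (SE 0.17, -0.021 in the reduced set) and Nfkbia, the inhibitor of NF-kB, -0.42 (SE 0.14, -0.063 in the reduced set). Glul, the glutamine synthetase of astrocytes and the member with the most counts at 1005 CPM, is given for its level. Without the 3 CD libraries 1 of 41 tested members was lower at an unadjusted p under 0.05, and the median was -0.077. By limma with quality weights, which gives outlying libraries less weight, 7 members were lower at that p. With scores of cerebellum and striatum as covariates, also added after seeing the data, 20 members were lower at that p and the median was -0.27.

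The element of the receptor was looked for in the promoters of these genes, from 250 bases before to 50 after the start of transcription (RefSeq, build GRCm38.p6). The letters searched were GNACANNNTGTNC, a palindrome that reads the same on both strands. A promoter was at hand for 38 list genes. The letters were in 3 of them, or 7.89%, against 145 of 27025 genes, or 0.537%. These are Map3k6, a kinase of the stress response, Mt1, a metallothionein that binds zinc and copper, and Sgk1, a kinase that controls ion channels. Their promoters are shown as the ones in this list that held the letters within the window searched, with the element in capitals and the gene's strand, which is plus for all 3. A match is a description of the letters and not a measured binding site.
Map3k6, chr4:133240568-133240867: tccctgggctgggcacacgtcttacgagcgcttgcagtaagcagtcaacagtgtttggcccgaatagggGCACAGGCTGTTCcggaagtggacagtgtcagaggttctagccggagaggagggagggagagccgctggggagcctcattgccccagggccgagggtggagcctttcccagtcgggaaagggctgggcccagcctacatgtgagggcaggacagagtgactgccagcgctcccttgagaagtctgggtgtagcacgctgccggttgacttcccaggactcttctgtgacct
Mt1, chr8:94178839-94179138: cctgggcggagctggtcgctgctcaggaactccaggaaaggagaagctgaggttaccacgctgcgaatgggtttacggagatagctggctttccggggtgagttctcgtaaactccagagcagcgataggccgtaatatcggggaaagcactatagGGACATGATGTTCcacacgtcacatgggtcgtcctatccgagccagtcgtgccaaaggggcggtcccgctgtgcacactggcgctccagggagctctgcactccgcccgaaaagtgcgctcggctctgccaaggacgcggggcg
Sgk1, chr10:21993640-21993939: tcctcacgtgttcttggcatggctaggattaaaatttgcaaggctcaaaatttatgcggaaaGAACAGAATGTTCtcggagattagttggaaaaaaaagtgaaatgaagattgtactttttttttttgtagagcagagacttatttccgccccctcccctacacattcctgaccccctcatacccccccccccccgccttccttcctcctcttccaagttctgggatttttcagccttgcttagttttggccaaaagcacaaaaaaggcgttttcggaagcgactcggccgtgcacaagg

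The element began 181 bases before the start of Map3k6, 94 before that of Mt1 and 188 before that of Sgk1. For Sgk1 6 promoter windows were searched, and 1 held the element. Of the named genes outside the list, Txnip also held it. The level of Map3k6 was 2.22 to 14.01 CPM (median 3.90) in CD and 2.12 to 4.03 CPM (median 2.92) in KD, with a log2 fold change of -0.87 (SE 0.29), and of 0.034 without CD replicates 3, 6 and 7. For Sgk1 it was 56.9 to 263 CPM (median 87.9) in CD and 64.3 to 104 CPM (median 76.3) in KD (-0.74 (SE 0.25)), and 0.086 without them. Mt1 was at 120.3 to 173 CPM (median 143) in CD and 109 to 147 CPM (median 132) in KD (-0.16 (SE 0.08)). The groups overlapped in all 3 genes, and in Map3k6 and Sgk1 the direction rested on the 3 CD libraries. These libraries were set apart for high levels of such genes, so this is no independent check. Map3k6 and Sgk1 were chosen for their promoters after their values were seen.

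**Figure D3:**
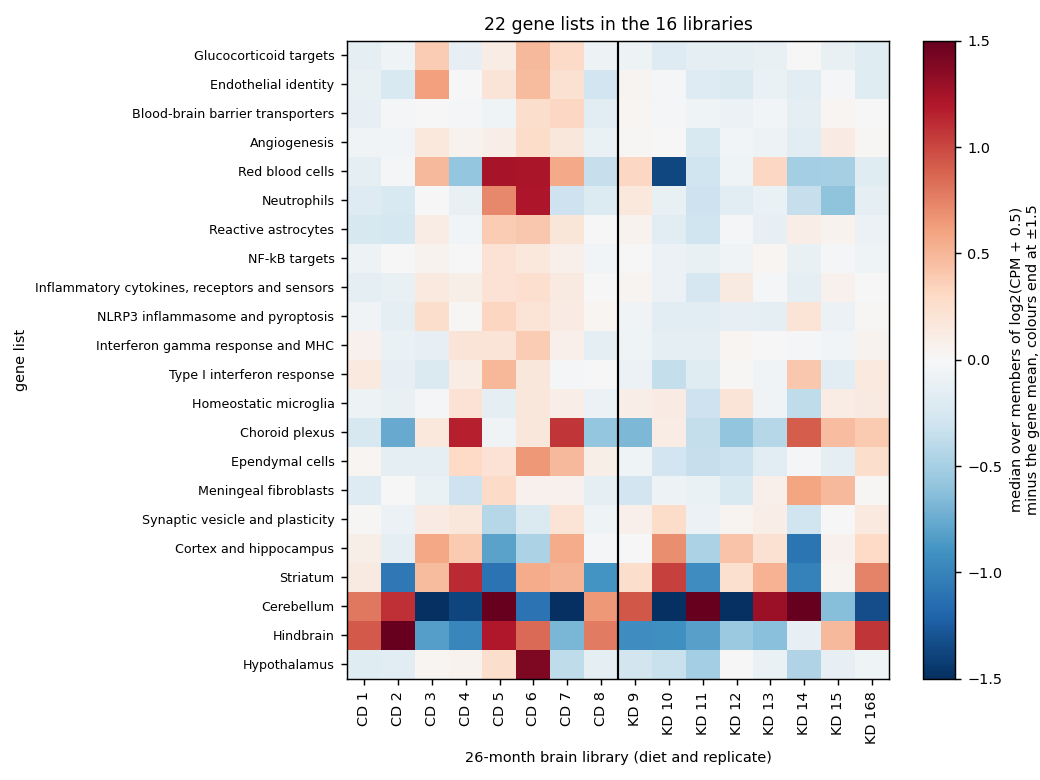
Level of 22 gene lists in the 16 libraries at 26 months, CD left and KD right of the line, as the median over members of log2(CPM + 0.5) minus each gene's mean, with colours that end at ±1.5. Glucocorticoid targets are high in CD replicates 3, 6 and 7 at 0.38, 0.48 and 0.28, and cerebellar genes vary over both diets.

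Vessel genes were high in the same libraries. Of 30 genes that mark endothelium, the lining of vessels, 27 had a fold change below 0 (90%, against 51.0% of all genes tested). At an unadjusted p under 0.05, 9 were lower (30% against 3%) and 1 higher (3.33% against 1.52%), and the median was -0.22. Their summed level was 534 to 1038 CPM in CD, highest in replicate 3, and 552 to 676 CPM in KD, and in whole tissue fewer endothelial cells and less RNA per cell cannot be told apart. Without CD replicates 3, 6 and 7 the median was 0.015 and 1 member was lower at that p. Nostrin, which traffics endothelial nitric oxide synthase, had -0.51 (SE 0.15, -0.27 in the reduced set) and the surface protein gene Ly6c1 -0.50 (SE 0.15, -0.18 in the reduced set). Tjp1, a scaffold of tight junctions, held the most counts, with 176 CPM. Carriers of the blood-brain barrier numbered 28, of which 6 were lower (21.4%, against 3% of all genes tested) and 0 higher at that p. Their median was -0.03, so the low values of Slc2a1 and Mfsd2a did not extend to most members. In the reduced set this list had 1 of 28 lower and a median of 0.036. Lrp1, which clears amyloid and lipoproteins, was at 915 CPM.

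Genes of angiogenesis had a median of -0.10. At an unadjusted p under 0.05, 6 of 50 were lower (12%) and 1 higher (2%), against 3% and 1.52% of all genes tested. The reduced set had 0 of 50 lower and a median of -0.0067. Notch4, a Notch receptor of endothelium, had -0.45 (SE 0.14, -0.14 in the reduced set), while S1pr1, the receptor of sphingosine 1-phosphate, had 0.12 (SE 0.044, 0.047 in the reduced set). The hypoxia factor gene Epas1 held the most counts, with 185 CPM. Pericytes and smooth muscle of vessels had 3 of 21 genes lower (14.3%, against 3% of all genes tested) and a median of -0.064. In the reduced set they had 1 of 21 lower and a median of 0.027. Rgs5, a regulator of G proteins that marks pericytes, stood at 72.2 to 106 CPM (median 90.05) in CD and 70.2 to 80.8 CPM (median 78.8) in KD (-0.27 (SE 0.077)), and Abcc9, a subunit of their potassium channel, had -0.36 (SE 0.13, -0.11 in the reduced set).

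Genes of red blood cells had a median of -0.74, and 5 of 8 had an unadjusted p under 0.05, all lower (62.5%, against 3% of all genes tested). There were 1 of 7 lower and a median of -0.44 in the reduced set, and 2 of 7 and -0.53 without CD replicate 5 and KD replicate 14. The β-globin gene Hbb-bt stood at 6.68 to 36.4 CPM (median 16.6) in CD and 2.74 to 14.7 CPM (median 7.87) in KD (-1.08 (SE 0.33, -0.70 in the reduced set)), and Hbb-bs, with the most counts, at 37.1 to 171 CPM (median 77.8) in CD and 13.6 to 80.2 CPM (median 52.7) in KD. The 4 globin genes took 0.00762% to 0.0346% of the counts in CD and 0.00264% to 0.0153% in KD, which did not pass the test (exact permutation test, two-sided, p = 0.0564, adjusted p = 0.282, 8 libraries a group). CD replicates 5 and 6 held the highest Hbb-bt, at 36.4 and 31.0 CPM. The blood left in the vessels of each brain is not recorded in the labels.

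Inflammatory genes, to which the study's question about the one-year KD is directed, had small negative medians and no calls. Of 49 targets of NF-kB, the factor that turns on genes after cytokine and danger signals, 35 had a fold change below 0 (71.4%, against 51.0% of all genes tested). Of these 49, 5 had an unadjusted p under 0.05, all lower (10.2% against 3%), and the median was -0.075. Nfkbia had the value given above, and the small Maf factor Maff stood at 2.08 to 6.66 CPM (median 3.14) in CD and 1.42 to 3.23 CPM (median 1.81) in KD (-0.74 (SE 0.26, -0.40 in the reduced set)). Sod2, the mitochondrial superoxide dismutase, was at 287 CPM. Of 44 cytokines, receptors and sensors, 6 were lower (13.6%, against 3% of all genes tested) and 0 higher at that p, and the median was -0.11. Tlr7, the sensor of single-stranded RNA, had -0.42 (SE 0.14, -0.17 in the reduced set) and Il15ra, which presents interleukin 15, -0.37 (SE 0.13). The neuronal chemokine Cx3cl1 was at 408 CPM. Without CD replicates 3, 6 and 7 none of either list had an unadjusted p under 0.05 in the lower direction, and the medians were -0.052 and -0.082.

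The classical cytokines were too scarce in whole brain to be tested. Il1b, Il6, Tnf and Ccl2 had means of 0.416 CPM, 0.223 CPM, 0.306 CPM and 0.230 CPM and did not pass the filter on low counts. Il1b ranged over 0.0903 to 0.966 CPM (median 0.528) in CD and 0.179 to 0.746 CPM (median 0.223) in KD, Il6 over 0 to 0.374 CPM (median 0.137) and 0 to 0.640 CPM (median 0.281), Tnf over 0 to 0.541 CPM (median 0.375) and 0.0932 to 0.678 CPM (median 0.257), and Ccl2 over 0.0779 to 0.748 CPM (median 0.194) and 0 to 0.366 CPM (median 0.191). The groups overlapped in all 4, and a difference between the diets was not detectable at this depth. Hcar2, the receptor of β-hydroxybutyrate, was as scarce, at 0.0779 to 0.748 CPM (median 0.470) in CD and 0.189 to 0.733 CPM (median 0.297) in KD.

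The inflammasome list had 3 of 14 members lower at an unadjusted p under 0.05 (21.4%, against 3% of all genes tested) and a median of -0.16. In the reduced set the list had 1 of 13 lower and a median of -0.063. Nlrp3, its sensor, stood at 1.004 to 3.12 CPM (median 1.48) in CD and 0.607 to 1.55 CPM (median 1.07) in KD, with a log2 fold change of -0.56 (SE 0.22) and an adjusted p of 0.989. The groups overlapped, and CD replicate 5 was highest. Txnip, which binds thioredoxin and rises with glucose, had -0.62 (SE 0.19, -0.045 in the reduced set), and the Nlrp3 partner gene Nek7 was at 64.9 CPM. Of 47 genes of the interferon gamma response and of antigen presentation, 9 were lower (19.15%) and 1 higher (2.13%), with a median of -0.11. The shares of all genes tested were 3% and 1.52%. The best placed members of this list are MHC class I genes, H2-Q4 with -0.62 (SE 0.18) and H2-K1 with -0.37 (SE 0.12). Reads of MHC genes can be split among near-identical copies, so these values are uncertain. The kinase gene Jak1 was at 172 CPM. Without CD replicates 3, 6 and 7 the median was -0.14 and 5 members were lower. The type I interferon response had 2 of 51 members lower (3.92%), near the 3% of all genes tested. A fold change below 0 was seen in 38 of the 51 (74.5%, against 51.0% of all genes tested). The median of the list was -0.12 and ran from -0.20 to -0.046 with 1 library left out. In the reduced set it was -0.18, with 10 of 51 above 0 and 2 lower at that p. Ifitm3, which blocks virus entry, had -0.36 (SE 0.13), the sensor of Z-form nucleic acids Zbp1 had -0.74 (SE 0.31), and the receptor gene Ifnar1 was at 51.96 CPM. Complement genes had 0 of 22 at that p and a median of -0.039, with Cfp at 0.21 (SE 0.12), and Clu was at 323 CPM.

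Genes of microglia had medians near 0, and those of border macrophages a lower one. Of 39 genes of homeostatic microglia 17 were above and 22 below 0, with a median of -0.012 and a summed level of 1597 to 2140 CPM in CD and 1356 to 2100 CPM in KD. Olfml3 had 0.24 (SE 0.11) and Tgfbr2, a receptor of TGF-β, -0.20 (SE 0.10). The factor gene Mef2c, which neurons also express, was at 483 CPM. Genes of disease-associated microglia, the state seen around plaques and in aging white matter, had a median of -0.039 (-0.063 in the reduced set) and 1 of 38 at an unadjusted p under 0.05. This was Ch25h, a cholesterol hydroxylase, with -1.32 (SE 0.57, too low for a test in the reduced set) at a mean of 0.957 CPM, and Csf1 came next with -0.14 (SE 0.075). The ferritin gene Fth1 was at 825 CPM. Of 13 genes of border macrophages and monocytes 11 had a fold change below 0, with a median of -0.15 (-0.048 in the reduced set) that ran from -0.24 to -0.078 with 1 library left out. None was lower at that p and 1 was higher, Cd209a with 0.68 (SE 0.32) at a mean of 0.559 CPM, and Vcan had -0.14 (SE 0.074), while the fibronectin gene Fn1 was at 64.5 CPM.

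Other immune cells were rare. Of the T and NK cell genes 8 of 25 could be tested, 0 of them with an unadjusted p under 0.05, with Cd247 at 0.32 (SE 0.21), Zap70 at -0.45 (SE 0.31) and Cd4 at a level of 7.81 CPM. Cd4 was highest in KD replicate 10 at 19.1 CPM and lowest in CD replicate 8 at 0.579 CPM. The striatal gene Pde10a was also highest and lowest there, at 744 and 133 CPM, so Cd4 is not read as a level of T cells. For B and plasma cells it was 8 of 15, with Igkc at 0.66 (SE 0.55) and Jchain at -0.23 (SE 0.31), and Xbp1 at a level of 87.97 CPM. Among neutrophil genes 4 of 15 could be tested. Lcn2, a protein that binds siderophores and is also made by endothelium and reactive astrocytes, stood at 0.451 to 12.4 CPM (median 3.96) in CD and 0.304 to 4.89 CPM (median 1.18) in KD (-1.85 (SE 0.67, -0.68 in the reduced set)), with CD replicates 3 and 6 at 12.2 and 12.4 CPM. The gelatinase gene Mmp9 had -0.47 (SE 0.26) and Csf3r was at 11.7 CPM.

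Marker genes of astrocytes and oligodendrocytes had medians near 0. Of 39 astrocyte genes 2 were lower at an unadjusted p under 0.05, Cbs of sulfur amino acid metabolism with -0.24 (SE 0.086, -0.10 in the reduced set) and the protease gene Htra1 with -0.21 (SE 0.08, -0.078 in the reduced set), and the median was -0.024. In the reduced set there were 0 of 39 lower and a median of -0.068. Reactive astrocyte genes had 6 of 32 lower (18.75%, against 3% of all genes tested) and a median of -0.15. They were led by Fkbp5, described above, and the MHC gene H2-T23 with -0.35 (SE 0.11, -0.18 in the reduced set). Gfap, the filament protein that marks astrocyte reactions, was at 158 to 308 CPM (median 247) in CD and 173 to 317 CPM (median 235) in KD. Without CD replicates 3, 6 and 7 the median of the reactive list was -0.072 and 1 member was lower at that p. Myelin genes had 3 of 32 lower and a median of -0.073, in the reduced set 0 of 32 lower and a median of -0.087, with Hapln2 of the node of Ranvier at -0.47 (SE 0.16, -0.23 in the reduced set), the lipocalin Apod at -0.43 (SE 0.16, -0.042 in the reduced set) and Mbp at a level of 1869 CPM. Progenitors of oligodendrocytes had 2 of 20 genes lower and in the reduced set 0 of 20 lower and a median of -0.031. The 2 in all libraries were C1ql1 with -0.58 (SE 0.26), which had -0.24 without CD replicate 6, and the receptor gene Pdgfra with -0.27 (SE 0.13, -0.02 in the reduced set), and Ptprz1 was at 431 CPM.

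The linings of the ventricles and the meninges varied between libraries. Genes of ependymal cells, the ciliated lining of the ventricles, were below 0 in 17 of 18 members (94.4%, against 51.0% of all genes tested). At an unadjusted p under 0.05, 5 were lower (27.8% of the list, against 3%), and the median was -0.53. The cilia genes Cfap126 and Dnah12 had -0.65 (SE 0.22) and -1.23 (SE 0.42, -0.76 in the reduced set), and Ccdc39 was at 33.98 CPM. Their summed level was 88.95 to 156 CPM in CD, highest in replicate 6, and 84.8 to 141 CPM in KD. Without CD replicates 3, 6 and 7 the median was -0.33 and 2 were lower. Choroid plexus genes had a median of -0.29 and 0 of 22 at that p, with Prlr at -0.61 (SE 0.36) and Clic6 at -0.50 (SE 0.37). Their direction rested on CD replicates 3, 6 and 7: the median turned to 0.031 in the reduced set, with 13 of 22 above 0 against 2, and ran from -0.45 to -0.057 with 1 library left out, the last without CD replicate 7. Enpp2 was at 367 CPM, and the transthyretin gene Ttr, made by this tissue, ran from 28.4 to 577.7 CPM in CD and from 5.50 to 399.1 CPM in KD. Fibroblasts of the meninges had 23 of 29 genes above 0 (79.3%, against 49.05% of all genes tested) and a median of 0.14. At that p 2 were higher (6.90% against 1.52%), fibromodulin (Fmod) with 0.57 (SE 0.21) and the collagen gene Col1a1 with 0.40 (SE 0.20). Without KD replicate 14 Col1a1 had 0.24, and the median ran from 0.04 to 0.22 with 1 library left out. Ptgds was at 210.4 CPM.

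Genes of neurons had medians near 0. Of 40 synaptic genes 30 were above 0 with a median of 0.056 (0.13 in the reduced set), 1 higher and 1 lower at an unadjusted p under 0.05: Pclo, a scaffold of the active zone, with 0.16 (SE 0.063) and the synapsin gene Syn3 with -0.29 (SE 0.10). Snap25 was at 1664 CPM. Glutamate receptors had a median of -0.001 (0.067 in the reduced set) and 0 of 25 at that p, with Grik4 at -0.27 (SE 0.14), Grm4 at 0.72 (SE 0.48) and Grin2b at a level of 1332 CPM. GABA receptors had 2 of 19 lower, Gabrr2 with -0.68 (SE 0.28, -0.13 in the reduced set) and Gabrq with -1.28 (SE 0.56), which had -0.83 without CD replicate 6, and Gabbr1 was at 703 CPM. Interneuron and neuropeptide genes had 0 of 24, with Adarb2 at -0.26 (SE 0.16), Reln at 0.54 (SE 0.36) and Gad1 at a level of 359 CPM. Neurotrophins and their receptors also had 0, with Nrtn at -0.52 (SE 0.26) and Ntrk2 at a level of 874 CPM. In the neurogenesis list Cd24a had -0.64 (SE 0.30) and Sox11 -0.28 (SE 0.17), and Stmn2 was at 192 CPM. Immediate early genes, which follow neuronal activity in the minutes before death, had a median of 0.12, from -0.019 to 0.20 with 1 library left out, and a single member at that p, Maff, with Trib1 at 0.23 (SE 0.14) and Homer1 at a level of 318 CPM. Clock genes had Ciart, a repressor of the clock, at -0.25 (SE 0.11, -0.049 in the reduced set) and Arntl at 0.16 (SE 0.089), with a median of 0.017.

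Lists of brain regions differed in level between libraries of the same diet, and their medians ran from -0.92 in the hindbrain to 0.48 in the cerebellum. Genes of the hindbrain had a median of -0.92 and 4 of 20 members lower at an unadjusted p under 0.05 (20%, against 3% of all genes tested). In the reduced set there were 4 of 20 lower and a median of -1.30, and without the KD library of the highest number the median was -1.83. Tph2, which starts serotonin synthesis in the raphe nuclei, stood at 0.994 to 19.3 CPM (median 6.30) in CD and 0.304 to 3.66 CPM (median 1.26) in KD (-2.33 (SE 0.67)), and Slc6a4, the serotonin transporter, at 0.181 to 13.2 CPM (median 3.54) in CD and 0 to 2.47 CPM (median 0.851) in KD (-2.46 (SE 0.77)). The groups overlapped in both. Unlike Plin4, Tph2 kept its value without CD replicates 3, 6 and 7, at -2.43 (SE 0.65). The glycine transporter gene Slc6a5, at a level of 0.632 to 177 CPM (median 55.8) in CD and 0.685 to 135 CPM (median 19.8) in KD, showed the same spread within a diet. Hypothalamic genes had a median of -0.65 and 6 of 22 lower, the orexin gene Hcrt with -4.00 (SE 1.51, too low for a test in the reduced set) at 0 to 9.13 CPM (median 0.0841) in CD and 0 to 0.304 CPM (median 0.110) in KD, and the oxytocin gene Oxt with -3.16 (SE 1.30, -1.09 in the reduced set) at 0 to 18.6 CPM (median 0.336) and 0 to 1.21 CPM (median 0.151). CD replicate 6 held the most Oxt, which had -0.77 without it. The reduced set had 1 of 21 lower and a median of -0.47 in this list, and the median was -0.32 without CD replicate 6. Npy was at 37.8 CPM.

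Cerebellar genes had 26 of 27 above 0 (96.3%, against 49.05% of all genes tested) and a median of 0.48 but 0 at an unadjusted p under 0.05. Tlx3 had 1.77 (SE 0.91), and Itpr1 was at a level of 971 CPM. The median of the cerebellar list was 0.053 in the reduced set, with 18 of 27 above 0. It was 0.20 without KD replicate 14 and 0.81 without CD replicate 5, the bounds over 1 library left out. For the striatum the median was 0.13 (0.35 in the reduced set), from -0.038 to 0.32 with 1 library left out, with Isl1 at -0.67 (SE 0.52), the acetylcholine enzyme gene Chat at -0.51 (SE 0.41) and Pde10a at a level of 395 CPM. Cortex and hippocampus had a median of 0.021 (0.13 in the reduced set), with Cux1 at 0.18 (SE 0.094) and Nr4a2 at 0.39 (SE 0.29). Thalamus and midbrain had -0.15 (-0.087 in the reduced set), from -0.37 to -0.10 with 1 library left out, with Ddc at -0.61 (SE 0.36), Slc18a2 at -0.40 (SE 0.27) and Rora at a level of 362 CPM. The olfactory bulb had -0.0099 (0.088 in the reduced set), with Trh at -1.29 (SE 0.72). CD replicate 6 held 31.6 CPM of Trh against at most 2.74 CPM in the other CD brains. Without it Trh turned to 0.36 and the median of the list to 0.29.

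**Figure D4:**
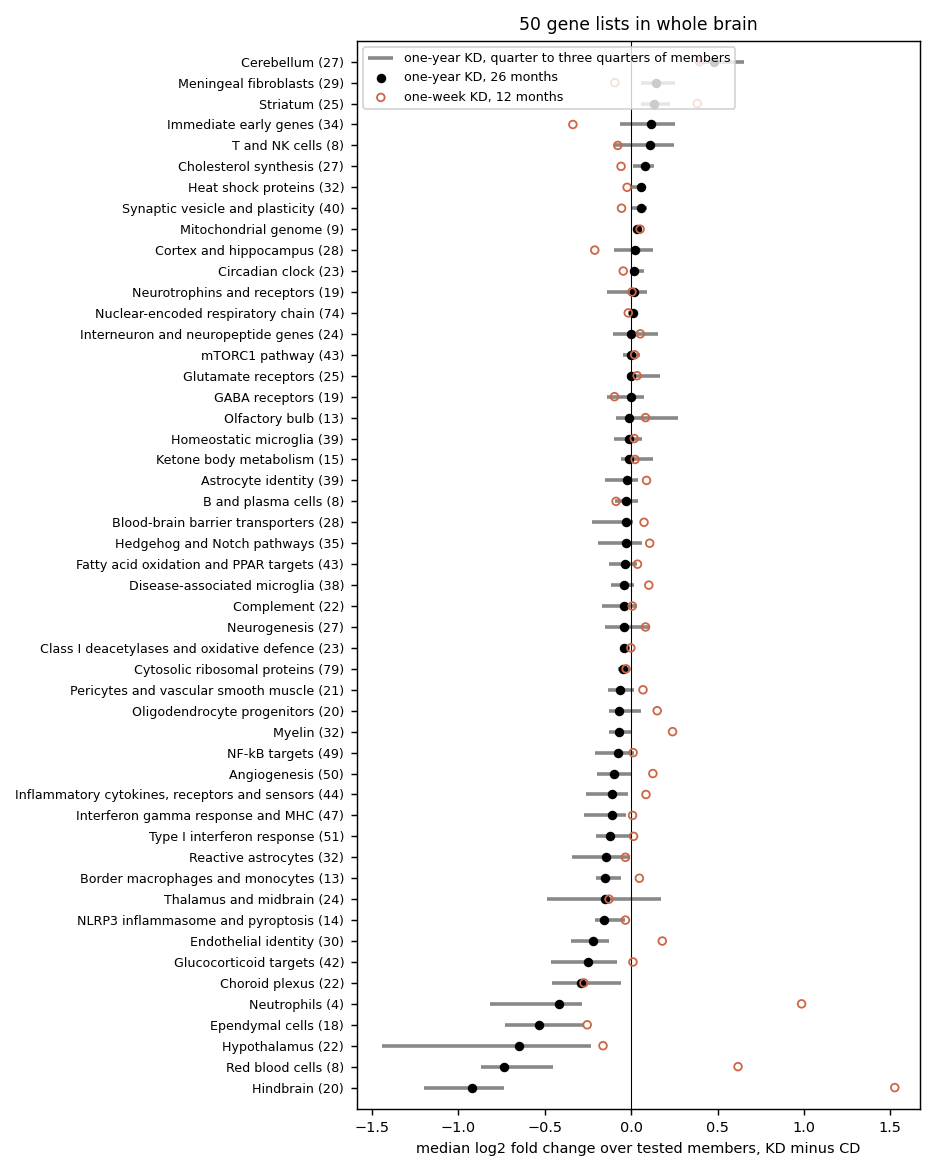
Median log2 fold change (KD minus CD) over the tested members of 50 gene lists, with the number of members in brackets, for the one-year KD (black, grey bar from the first to the third quartile of members) and the one-week KD (open orange). The one-year medians run from -0.92 in the hindbrain list to 0.48 in the cerebellar list.

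Genes of fuel use were close in both diets, in brains taken in a CD week. Ketone body metabolism had a median of -0.013 and 1 of 15 members higher at an unadjusted p under 0.05, Aacs, which uses acetoacetate for lipid synthesis, with 0.20 (SE 0.069). Oxct1, the enzyme that starts ketone body use, stood at 165 to 228 CPM (median 201) in CD and 175 to 229.9 CPM (median 211) in KD, with a 95% interval of the log2 fold change of -0.038 to 0.22. Bdh1 had an interval of -0.074 to 0.13 and Slc16a1, the carrier of lactate and ketone bodies in brain vessels, of -0.19 to 0.12. The fatty acid carrier gene Slc27a1 had -0.07 (SE 0.045). Of 43 genes of fatty acid oxidation and PPAR targets 4 were lower and 1 higher, with Plin4, described above, and the isomerase gene Eci2 (-0.20 (SE 0.059)) in front. In the reduced set there were 2 of 43 lower and a median of -0.054. Cpt1a, which brings fatty acids into mitochondria, had -0.077 (SE 0.081), and Acsl6 was at 229.5 CPM.

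Cholesterol synthesis had 22 of 27 genes above 0 (81.5%, against 49.05% of all genes tested) and a median of 0.078. At an unadjusted p under 0.05, 2 were higher (7.41% against 1.52%). Tm7sf2, a sterol reductase, stood at 7.06 to 9.58 CPM (median 7.93) in CD and 8.14 to 12.02 CPM (median 9.70) in KD (0.26 (SE 0.088)), and Mvd, mevalonate diphosphate decarboxylase, had 0.32 (SE 0.11, 0.19 in the reduced set). The factor gene Srebf2 was at 209 CPM. Nuclear genes of the respiratory chain had 0 of 74 at that p and a median of 0.0079, with Ndufb4 at -0.16 (SE 0.079), Atp5d at 0.12 (SE 0.057) and Atp5b at a level of 458 CPM. Mitochondrial genes had 0 of 9, with mt-Nd2 at 0.069 (SE 0.049), mt-Nd4 at 0.047 (SE 0.046) and mt-Co1 at a level of 6876 CPM. Ribosomal proteins had 2 of 79 lower (2.53%, near the 3% of all genes tested), Rpl7 with -0.12 (SE 0.049) and Rpl6 with -0.13 (SE 0.054). A fold change below 0 was seen in 67 of the 79 (84.8%, against 51.0% of all genes tested). The median of this list was -0.045, from -0.074 to -0.0078 with 1 library left out, and Rpl4 was at a level of 197 CPM. In the mTORC1 pathway 3 of 43 were lower, Ddit4 and the GTPase gene Rragb (-0.16 (SE 0.073)) in front, 1 in the reduced set, and Sesn3 was at 332 CPM. Heat shock genes had a median of 0.056 (-0.055 in the reduced set), with Hspb8 at -0.34 (SE 0.16), Calr at 0.15 (SE 0.075) and Hspa8 at a level of 782 CPM. The Hedgehog and Notch list had 2 higher and 5 lower of 35, and 1 of 35 lower and a median of -0.026 in the reduced set, with Rfng and Notch4 given above, and Ptch1 at 172 CPM. Deacetylases and oxidative defence had 0 of 23, with Mt1 in front and Foxo3 at 0.15 (SE 0.11). Hnrnpa1, a splicing factor that binds β-hydroxybutyrate in studies of vessels, had 0.027 (SE 0.047).

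Whether the effect of a year differed from that of a week was tested as a contrast of the same fit. The one-week KD was measured at 12 months, in mice that the study fed KD ad libitum for that week. The 26-month KD brains were taken in a CD week. Age, the length of the diet, the cohort and the food of the last week cannot be told apart in this difference. Of 22079 genes edgeR called 0 (0%) at an adjusted p under 0.05, the smallest being 0.412, and 998 (4.52%) had an unadjusted p under 0.05. DESeq2 called 2 genes, Slc16a1 and AC154659.1. The carrier gene Slc16a1 had the smallest p of the difference among the genes named by rule. At 12 months it stood at 39.9 to 48.3 CPM (median 42.2) in CD and 56.8 to 68.4 CPM (median 62.8) after a week of KD. Its log2 fold change was 0.54 with an SE of 0.089 and, by edgeR, an adjusted p of 0.0417. At 26 months it stood at 32.5 to 52.4 CPM (median 46.4) in CD and 37.9 to 50.7 CPM (median 42.7) in KD, overlapping, with -0.036 (SE 0.076). The difference of both effects was -0.58 (SE 0.12, adjusted p = 0.412 by edgeR). By DESeq2 it was -0.57 with an adjusted p of 0.0222, and in edgeR without CD replicates 3, 6 and 7 it was -0.64 with an adjusted p of 0.0134. AC154659.1, a predicted transcript at 1.83 CPM, named because DESeq2 called it, had a difference of -1.55 (SE 0.31).

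The genes that followed included Rgs5, Cxcl12 and Flt1 of the vessel wall. All were chosen by the p of the difference, which uses the one-week values given here. Rgs5 of pericytes was at 69.1 to 95.5 CPM (median 88.3) in CD and 87.05 to 114 CPM (median 97.6) after a week of KD, with a log2 fold change of 0.27 at one week, -0.27 at one year and a difference of -0.54 (SE 0.12). Acer2 had 0.85 at one week and a difference of -1.90 (SE 0.45). Its 12-month levels were 7.13 to 9.33 CPM (median 8.16) in CD and 11.8 to 18.5 CPM (median 13.9) in KD. Cxcl12, a chemokine of vessels and meninges, had 0.50 and -0.10, a difference of -0.60 (SE 0.15), and 12-month levels of 38.3 to 62.8 CPM (median 57.4) in CD and 64.8 to 84.8 CPM (median 75.5) in KD. Flt1, the VEGF receptor of endothelium, had 0.51 and -0.20, a difference of -0.71 (SE 0.18), and 12-month levels of 50 to 76.2 CPM (median 69.8) and 85.2 to 105 CPM (median 95.1). Their adjusted p ranged from 0.719 to 0.972, so none passed. In the reduced set the one-year values were -0.19 for Rgs5, -0.19 for Acer2, -0.11 for Cxcl12 and 0.029 for Flt1. Over the endothelial list the median was 0.18 at one week and -0.22 at one year, but 0.0155 at one year in the reduced set. For the difference in all libraries, 15 of 30 members had an unadjusted p under 0.05, against 4.52% of all genes. For angiogenesis the medians were 0.13 and -0.10 (-0.0067 in the reduced set), with 12 of 50. Glucocorticoid targets had 0.01 and -0.25 (-0.077 in the reduced set), with 12 of 42. Immediate early genes had -0.34 and 0.12 (0.13 in the reduced set), with 9 of 34. The diet groups at 12 months also differed in genes of brain regions. At one week the hindbrain median was 1.53, with 20 of 20 members above 0. That of cortex and hippocampus was -0.21, with 4 of 28 above 0. How much region content adds to the one-week values and to the difference in these lists was not tested.

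**Figure D5:**
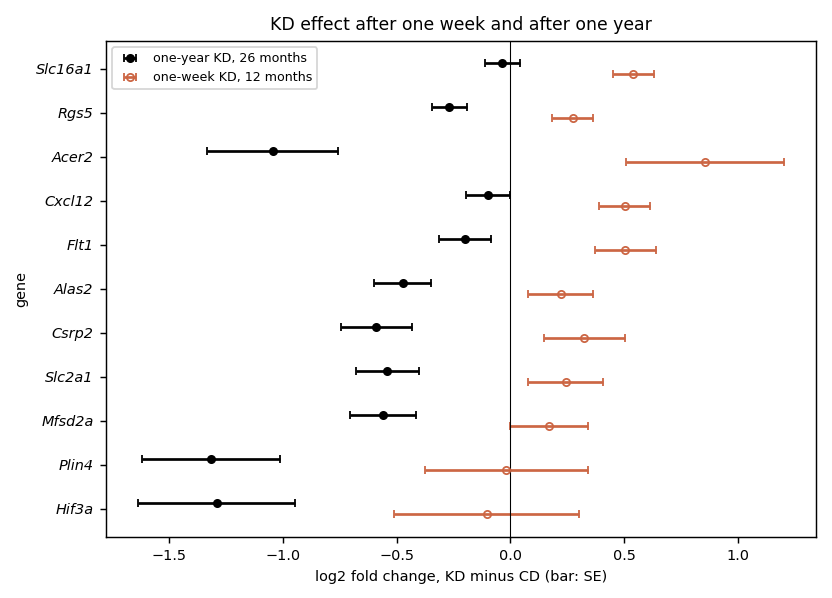
Log2 fold change of KD over CD with its SE after a year at 26 months (black, 8 against 8 libraries) and after a week at 12 months (open orange, 7 against 5) for the 5 genes with the smallest p of the difference and for 6 genes named above. Slc16a1 lies at 0.54 after a week and at -0.036 after a year, while Plin4 and Hif3a lie near 0 after a week.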

How the data were processed

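Libraries of whole brain RNA were made with a kit that removes ribosomal RNA. Reads were trimmed by the authors (Trimmomatic), mapped to GRCm38 (STAR) and counted (RSEM), in versions not given in the sources used here. The deposited values are raw whole-number counts per gene, with no normalization. The table holds 54446 Ensembl identifiers, 54409 of which were found in GENCODE vM21 for symbols and positions.

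The 28 brain libraries were fitted together in 4 groups of age and diet with the quasi-likelihood F test of edgeR 4.0.16 in R 4.3.3, after filterByExpr and TMM, with Benjamini-Hochberg adjustment over 22079 genes. Fold changes are KD minus CD on the log2 scale, and p-values without the word adjusted are unadjusted. The common biological coefficient of variation was 0.206. The study used DESeq2. DESeq2 1.42.0 and limma 3.58.1 with quality weights were alternatives, with RLE factors, total counts, other filters, the 26-month libraries alone and each library left out. Measures of libraries were compared by exact permutation tests (scipy). Intervals are at 95%. The pipeline was tested on simulated counts. No batch or day is given for the samples.

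Gene lists, 50 in all, were written by hand, and the members, lists and tests were chosen with earlier results of these data known. Lists are described by counts and medians, without a test of the list. Genes named are the 12 with the smallest p in each direction at a mean of at least 1 CPM, leaving out predicted genes and pseudogenes, the 2 best placed members by p of every list, the member of each list with the most counts (for its level, as a mean over the 16 libraries), 13 genes of inflammation and ketone metabolism, and the 5 with the smallest p of the difference between both diet effects. A few genes that meet these rules are not reported here. Where 1 symbol had several identifiers the one with more counts was used. Liver libraries were not analysed here. Figures were drawn with matplotlib.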

Additional observations from a re-analysis of the deposited data

Results flagged for a closer look

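Among the 169 named genes, in each diet at 26 months, 29 of 338 sets of 8 libraries held 1 library farther from the others than Dixon's limit for 8 samples (a gap of 0.526 of the range). That is 8.58% of the sets. Chance marks about 1 in 20, and the genes are not independent of each other. The library farthest from the others and its nearest neighbour were as follows, with no cause tested.

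In CD replicate 3 Maff was highest at 6.66 CPM (next 3.67). In CD replicate 5 Ccl2 was highest at 0.748 CPM (next 0.365) and Gabbr1 was lowest at 546 CPM (next 674). There Nlrp3 was highest at 3.12 CPM (next 1.93) and Sod2 was lowest at 263 CPM (next 291). There Srebf2 was lowest at 139 CPM (next 189) and Tlx3 was highest at 2.62 CPM (next 0.722). In CD replicate 6 Chat was highest at 15.3 CPM (next 8.23) and Foxo3 was lowest at 114 CPM (next 142). There Gabrq was highest at 30.8 CPM (next 11.4) and Itpr1 was lowest at 425 CPM (next 814). There Mapk15 was highest at 3.96 CPM (next 2.10) and Oxt was highest at 18.6 CPM (next 2.35). There Trh was highest at 31.6 CPM (next 2.74). In KD replicate 10 Arntl was highest at 62.6 CPM (next 50.4) and Entr1 was highest at 42.7 CPM (next 39.3). There H2-T23 was highest at 9.59 CPM (next 7.59) and Trib1 was highest at 35.3 CPM (next 24.2). In KD replicate 12 Oxt was highest at 1.21 CPM (next 0.457). In KD replicate 13 Ch25h was highest at 2.93 CPM (next 0.484) and Lcn2 was highest at 4.89 CPM (next 2.18). There Ly6c1 was highest at 43.9 CPM (next 34.2) and Trh was highest at 6.72 CPM (next 2.24). In KD replicate 14 Aacs was lowest at 21.2 CPM (next 27.6) and Gabbr1 was lowest at 549.6 CPM (next 698). There Mvd was lowest at 6.78 CPM (next 10.8). In KD replicate 15 Syn3 was highest at 43.3 CPM (next 37.4). In the KD library of the highest number Nostrin was lowest at 2.47 CPM (next 3.34) and Slc6a5 was highest at 135 CPM (next 40.5).

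Of these, CD replicate 6 was marked in 7 genes and CD replicate 5 in 6. For Oxt, Trh, Gabrq and Chat CD replicate 6 was the highest CD library. For the glucocorticoid targets Plin4, Hif3a and Fkbp5 no library was marked, and CD replicates 3, 6 and 7 were high together.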

How the results depend on the processing

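No gene was called for the one-year KD in either direction under any of the 27 alternatives. The number of genes whose interval lay within 2-fold was 19889 to 20261 with a library left out. Genes higher at an unadjusted p under 0.05 numbered 336, against 215 with total counts alone, 909 of 50709 without a filter, 209 with the 26-month libraries alone, 216 without CD replicates 3, 6 and 7 and 224 to 561 with 1 library left out. Lower ones numbered 663, against 1156 without a filter, 325 without the 3 CD libraries and 379 to 898 with 1 library left out, 379 being without CD replicate 6. The share of higher genes among those at that p was 33.6%, against 21.0% with total counts alone and 44.0% without a filter. For the difference of both diet effects DESeq2 called 2 genes, and edgeR 1 without the 3 CD libraries and 0 to 1 with a library left out, which was Slc16a1 without CD replicate 3.

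Of 3195 fold changes of 120 named genes (49 others were named for their level), 3182 kept their direction and 0 passed an adjusted p of 0.05. Without CD replicates 3, 6 and 7 the direction turned for Flt1 (0.029), Map3k6 (0.034), Sgk1 (0.086) and Trh (0.69). With limma it turned for Hnrnpa1 (-0.015), Isl1 (0.12) and Trh (0.21), without CD replicate 6 for Slc16a1 (0.0013, range with 1 library left out -0.091 to 0.0013) and Trh (0.36, range -1.71 to 0.36), without the libraries high in Gm10800 for Cpt1a (0.0035), Hnrnpa1 (-0.011) and Slc16a1 (0.052), and without CD replicate 5 and KD replicate 14 for Slc16a1 (0.013). The cause was not tested.

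Of 1350 medians of the 50 lists, 1343 moved by less than the spread between libraries. The others were T and NK cells (-0.064), ependymal cells (-0.14) and hypothalamus (0.073) with at least 10 counts in every library, hypothalamus with limma (-0.18), hindbrain without the KD library of the highest number (-1.83), olfactory bulb without CD replicate 6 (0.29) and ketone body metabolism without the libraries high in Gm10800 (0.049). The spread between libraries is a loose limit, and a median within it can still lose or turn its direction. Without CD replicates 3, 6 and 7 the median moved from -0.22 to 0.0155 for endothelial genes. For choroid plexus it moved from -0.29 to 0.031, and for glucocorticoid targets from -0.25 to -0.077. Glucocorticoid targets lower at an unadjusted p under 0.05 numbered 19, against 7 with limma and 1 without the 3 CD libraries. With a library left out, KD minus CD ranged from -752000 to 4708 for the total count (4708 without CD replicate 2), from -291 to 1637 for genes detected (-291 without KD replicate 14), from -0.027 to 0.18 percentage points for Gm10800 (-0.027 without KD replicate 14), from -0.0054 to 0.059 for mitochondrial genes (-0.0054 without KD replicate 13) and from -0.0097 to -0.0059 for globin genes.

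Fits without CD replicates 3, 6 and 7, without the libraries with over 0.5% of counts in Gm10800 (CD replicate 5 and KD replicates 12, 13 and 14), without CD replicate 5 and KD replicate 14, and with region scores as covariates were added after seeing the data. No paired analysis was possible because the 26-month CD and KD brains share no replicate number. At this depth, genes such as Il1b or Tnf cannot be compared. A library left out lowers the number of samples. Region content and blood varied within each diet, and their part in the values was not tested.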
